A study of Nothobranchius furzeri with 10 samples.

Results

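In the skin of the turquoise killifish Nothobranchius furzeri, 122 genes were lower in 4 of 10 RNA-seq libraries than in every one of the other 6, and the 4 libraries came from both treatments. The 4 were DMSO replicate 2 and rotenone replicates 3, 4 and 5, and the other 6 were DMSO replicates 1, 3, 4 and 5 and rotenone replicates 1 and 2. A gene was a member when its highest value in the 4 libraries lay below its lowest value in the other 6, on the scale of log2 CPM (read counts relative to the library total) after TMM scaling, which corrects library totals for reads concentrated on few genes. The rule keeps at most 200 genes with the most negative mean difference, and 122 met it, so no gene was dropped for size. The members are 0.662% of the 18435 genes with enough counts to be tested, out of 26739 identifiers in the deposited tables. The split of the libraries was itself read from these expression profiles and matches no label, so the members were chosen by the same log2 CPM values that are reported here, and their lower values in the 4 libraries are a description without a test.

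All libraries were made from skin of 27-week-old males (strain MZM-0410p), with 5 libraries in the DMSO group (the solvent) and 5 in the group given 15 pM rotenone. The comparison asks whether exposure to rotenone at a picomolar dose changes the skin transcriptome. The labels give no batch, treatment length or pairing, replicate numbers serve only as names, and separate fish are not stated for the libraries, so the p-values speak of library-to-library spread, which may be technical. Total counts ran from 25565008 to 33406901 in the 4 libraries and from 18801139 to 42253397 in the other 6, so the ranges overlapped.

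Rotenone blocks mitochondrial complex I, which passes electrons from NADH into the respiratory chain. Fish skin is a living, mucus-covered epidermis over a dermis that holds scales, pigment cells, vessels, nerves and immune cells, and a bulk RNA sample mixes all of them. In such a sample, fewer cells of a type and less RNA per cell cannot be told apart. The identifiers in the tables carry no gene names, and 0 of the 26739 matched RefSeq's gene table for assembly NfurGRZ-RIMD1. The members therefore have no known function, position or sequence here, the skin label could not be checked against marker genes, and 4 members are named by identifier only.

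The members lay low together in all 4 libraries, by a modest amount in most of them. Their median log2 CPM was 4.35 in DMSO replicate 2, 4.43 in rotenone replicate 3, 4.40 in rotenone replicate 4 and 4.42 in rotenone replicate 5. In the other DMSO libraries it was 4.76 in replicate 1, 4.74 in replicate 3, 4.82 in replicate 4 and 4.76 in replicate 5, and it was 4.80 and 4.81 in rotenone replicates 1 and 2. By this median, the DMSO library among the 4 was as low as the 3 rotenone libraries. The 2 rotenone libraries outside the 4 were, by the same median, as high as the 4 DMSO libraries beside them. Over the same libraries the median log2 CPM of all tested genes was 3.57 to 3.64 in the 4 libraries and 3.49 to 3.57 in the other 6, with rotenone replicate 4 slightly below rotenone replicate 2, and the median over genes of the mean difference was -0.01.

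**Figure D1:**
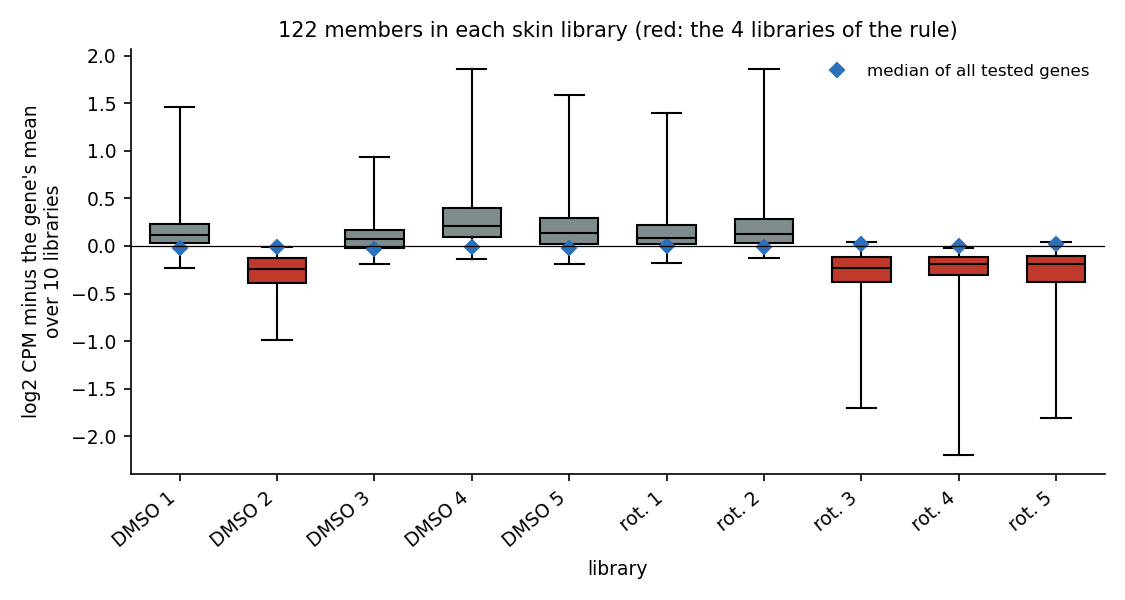
Each box shows the 122 members in 1 library as log2 CPM minus the gene's own mean over the 10 libraries (box: quartiles, line: median, whiskers: lowest and highest member), with diamonds for the median of all tested genes. Medians of the members run from -0.24 to -0.19 in the 4 red libraries and from 0.08 to 0.21 in the 6 grey ones, while the diamonds stay between -0.03 and 0.02.

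Together the members took a small share of the reads. That share was 0.521% in DMSO replicate 2, 0.521% in rotenone replicate 3, 0.458% in rotenone replicate 4 and 0.492% in rotenone replicate 5. It ran from 0.663% to 0.866% in the other 6 libraries, lowest in rotenone replicate 2 and highest in DMSO replicate 4. Rotenone replicate 1 had 0.712%, and the DMSO libraries of the 6 had 0.727% or more. By share of reads, both rotenone libraries of the 6 thus lay below all DMSO libraries beside them. None of the 122 was among the 100 genes with the highest mean share of reads (0 members). Those 100 are few beside the 18435 tested genes, so this count says little about the members.

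The mean difference, 4 libraries minus the other 6, had a median of -0.38 log2 CPM over the members, which is 1.30-fold lower, and ran from -2.18 to -0.11. Of the 122 members, 11 were at least 2-fold lower, 20 were 1.5-fold to 2-fold lower, 60 were 1.2-fold to 1.5-fold lower and 31 were less than 1.2-fold lower. Members with larger differences were scarcer and shorter at the median, though not in every case. The 11 members at least 2-fold lower had a median level of 1.84 CPM, with a range from 0.572 to 88.2 CPM, and a median length of 1200 bases, whereas the 31 members under 1.2-fold had medians of 34.2 CPM and 4815 bases. The 2 members with the largest differences were among the more abundant of the 11, at 43.6 CPM (Nfu_g_1_012235) and 88.2 CPM (Nfu_g_1_019178). Spread within the 2 sets of libraries was also larger at the median in members with larger differences, which the rule favours. A small mean difference leaves no overlap only where the spread is small. The median SD was 0.45 within the 4 libraries and 0.53 within the other 6 for the 11 strongest members, against 0.07 and 0.09 log2 CPM for the 31 weakest.

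Separation of the libraries was more frequent among genes with a larger mean difference, but most such genes still overlapped. Separation and mean difference come from the same values, which favours this pattern. Of the 72 tested genes that were at least 2-fold lower in the mean of the 4 libraries, 11 were members (15.3%), and in the other genes of that size at least 1 library crossed over. The share was 5.15% of 388 genes at 1.5-fold to 2-fold, 2.69% of 2228 genes at 1.2-fold to 1.5-fold and 0.197% of the 15747 genes that were less than 1.2-fold lower or were higher. At or below the members' median difference lay 1374 tested genes, of which 61 were members. The gap between the lowest of the 6 libraries and the highest of the 4 was narrow. Its median over the members was 0.05 log2 CPM, a ratio of 1.04, the widest was 0.47, a ratio of 1.38, and 3 members had a ratio of at least 1.2. The member nearest the limit had a gap of 0.00057 with a mean difference of -0.13, and the nearest gene outside it overlapped by 0.0012 (gap -0.0012) with a mean difference of -0.57. Within 0.02 log2 CPM of the limit stood 27 members on the inside and 41 other genes on the outside, so membership of these genes rests on very small differences in level.

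**Figure D2:**
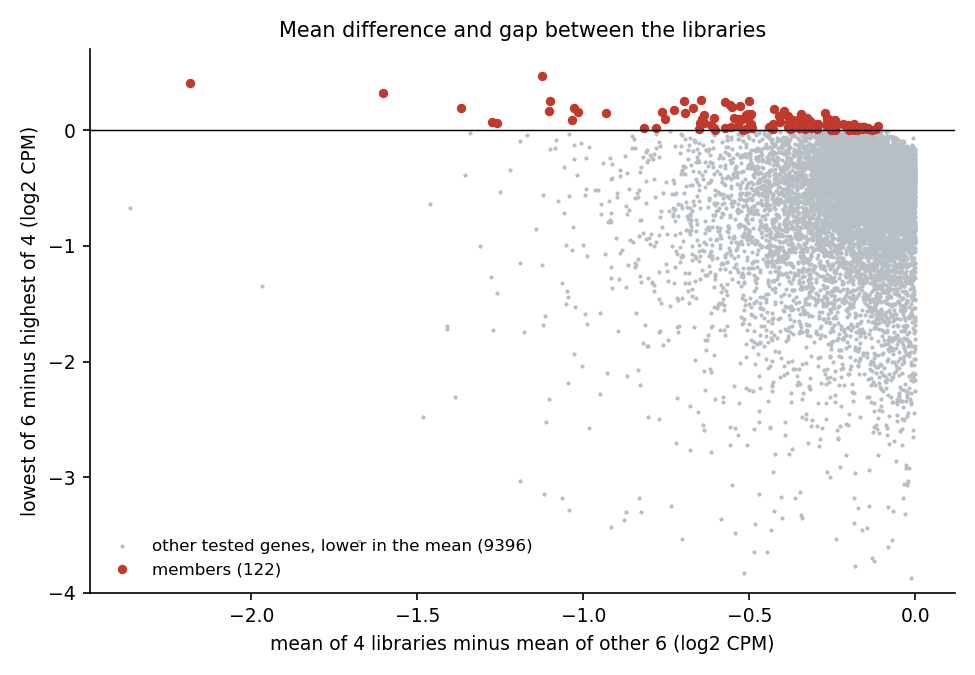
Each point is a tested gene with a lower mean in the 4 libraries, with its mean difference (log2 CPM, x axis) against the lowest value of the 6 minus the highest value of the 4 (log2 CPM, y axis). Members (122, red) lie above 0 and most hug the line, the other 9396 genes lie below it, and 22 of these fall below the axis limit of -4.

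The first member by size of the difference, Nfu_g_1_012235, had 19.9 CPM in DMSO replicate 2 and 19.5, 6.56 and 8.56 CPM in rotenone replicates 3, 4 and 5. In the other libraries it had 31.47, 26.5, 110 and 86.0 CPM in DMSO replicates 1, 3, 4 and 5, and 45.3 and 82.0 CPM in rotenone replicates 1 and 2. Its level was thus uneven inside both sets, with DMSO replicates 1 and 3 nearer to the 4 low libraries than to DMSO replicate 4. The mean difference was -2.18 log2 CPM (4.55-fold lower), from 176 counts in the lowest library to 2764 in the highest.

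Nfu_g_1_019178 had the second largest difference, -1.60 log2 CPM or 3.04-fold. Its values were 59.5 CPM in DMSO replicate 2 and 21.9, 31.7 and 43.5 CPM in rotenone replicates 3, 4 and 5. DMSO replicates 1, 3, 4 and 5 had 197, 96.1, 188 and 83.8 CPM, and rotenone replicates 1 and 2 had 74.2 and 86.1 CPM. DMSO replicate 2 was the highest of the 4 low libraries in both of these genes, and rotenone replicate 1 was the lowest of the other 6 in the second.

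The other 2 named members were those with the highest rotenone to DMSO fold change. Nfu_g_1_007263 had 17.3 CPM in DMSO replicate 2 and 29.5, 19.9 and 20.8 CPM in rotenone replicates 3, 4 and 5, against 38.8, 31.3, 34.53 and 43.2 CPM in the other DMSO libraries in order of replicate. Rotenone replicate 1 stood far above all others at 87.2 CPM, followed by rotenone replicate 2 at 46.3 CPM. Nfu_g_1_006312 was scarce, with 13 to 44 counts per library. It had 0.523 CPM in DMSO replicate 2 and 0.653, 0.708 and 0.730 CPM in rotenone replicates 3, 4 and 5, and in the other DMSO libraries 0.805, 0.909, 0.963 and 1.03 CPM. Rotenone replicates 1 and 2 were the highest, at 1.61 and 1.12 CPM, as in Nfu_g_1_007263. The choice of these members by rotenone fold change favours this, since rotenone replicates 3, 4 and 5 are low by the rule.

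**Figure D3:**
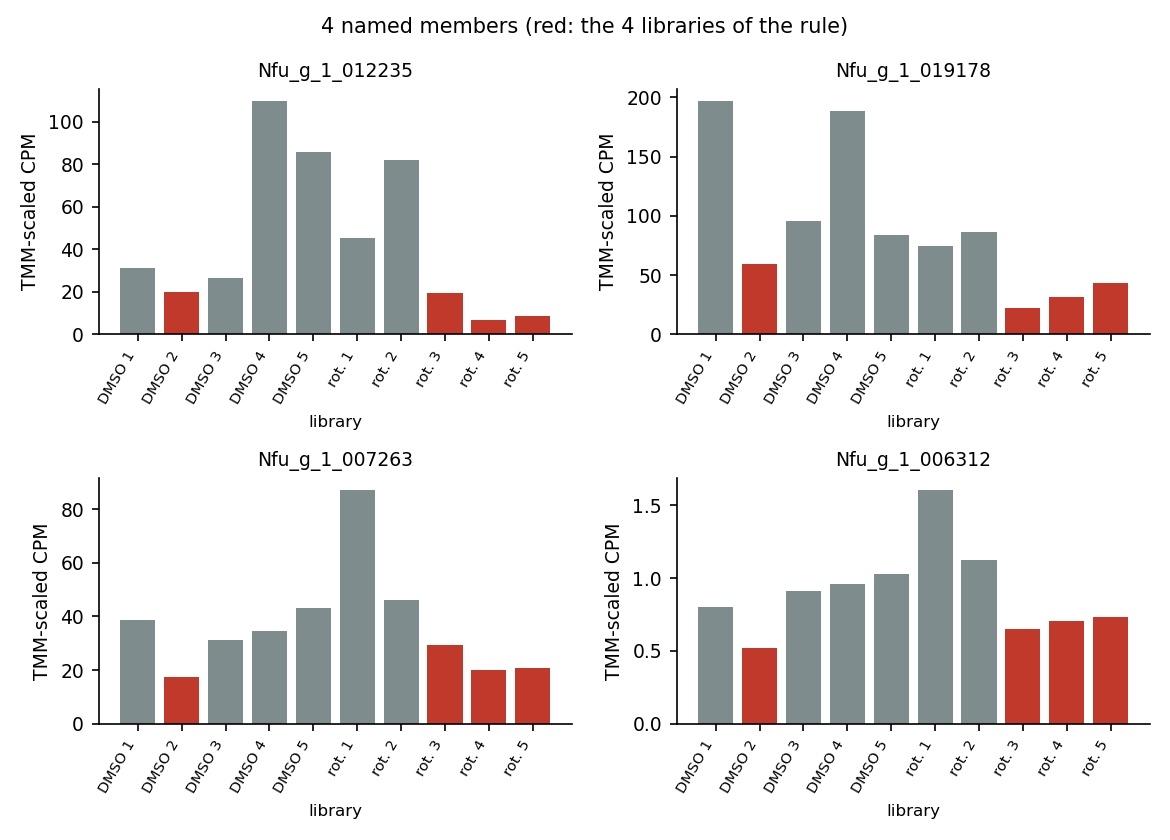
Bars give the TMM-scaled CPM of the 4 named members in each of the 10 libraries, with the 4 libraries of the rule in red and the other 6 in grey. Red bars are the lowest in every panel, and the height of the grey bars varies from 26.5 to 110 CPM in Nfu_g_1_012235.

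The members' order inside each set of libraries was not fixed by the rule. Among the 4 low libraries, DMSO replicate 2 was the lowest in 41 members (33.6%, against 29.0% of all tested genes), rotenone replicate 3 in 37 (30.3% against 25.6%), rotenone replicate 5 in 27 (22.1% against 21.4%) and rotenone replicate 4 in 17 (13.9% against 24.0%). Among the other 6, DMSO replicate 4 was the highest library in 42 members (34.4%), while it was the highest of these 6 in 11.9% of all tested genes. Rotenone replicate 2 was the highest in 21 members (17.2% against 28.5% of tested genes), rotenone replicate 1 in 17 (13.9% against 19.6%), DMSO replicate 1 in 18 (14.8% against 16%), DMSO replicate 5 in 17 (13.9% against 12.8%) and DMSO replicate 3 in 7 (5.74% against 11.2%). The members' high side was thus weighted towards DMSO replicate 4, the library with the lowest score on the first principal component. Within the 6 libraries, with DMSO replicate 4 included, correlations between members were low at the median. The median pairwise correlation between members over the 6 libraries was 0.06, with the middle 50% of pairs between -0.31 and 0.45, and over the 4 libraries it was -0.03. Every sixth tested gene gave medians of 0.00 over both sets. Over the 6 libraries, the middle 50% of those pairs lay between -0.43 and 0.43. These correlations rest on 6 and 4 shared libraries and are descriptions only.

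Members were steadier between libraries of the same set than most genes, which the rule favours. Their median SD was 0.13 log2 CPM within the 4 libraries and 0.18 within the other 6, against 0.30 and 0.35 for all tested genes. They were also counted more deeply. The median level was 25.6 CPM over the members and 12.3 CPM over all tested genes. At least 100 counts in every library were found in 95 of 122 members, while 12 had fewer than 20 counts in at least 1. A gene's lowest count over the libraries had a median of 458 over the members and 178 over all tested genes. Its 10% quantile was 21.1 and 10. The part of counting depth in which genes met the rule was not tested.

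Members were longer at the median than all tested genes, though not in every case. Gene lengths recovered from the deposited counts and RPKM were available for all 122 members and for 99.2% of tested genes. The median length was 3791 bases over the members and 2698 bases over the tested genes, and 74 of the 122 were longer than the latter. Longer genes collect more reads at the same abundance. Per length the members stood close to other genes, with a median level of 5.78 RPKM (recomputed with TMM scaling) against 5.04 RPKM for all tested genes, and 66 of the 122 lay above the latter. Levels among the members ran from 0.176 to 1109 RPKM.

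The rule was drawn from the first principal component of the 10 libraries, which held 37.5% of the variance, and the members followed it without carrying it. All 122 had a loading of the sign that is low in the 4 libraries, and their correlation with the component score over the 10 libraries ran from -0.93 to -0.43 with a median of -0.77. This is fixed in large part by the rule. Yet the members held 0.379% of the squared loadings, less than their 0.662% of the tested genes, and all genes with that sign (52.8% of those tested) held 8.12%. The 597 genes that were higher in all 4 libraries than in the other 6 (3.24% of tested genes) held 67.5%. By size, too, the 2 directions were unequal: 435 of those 597 genes were at least 2-fold higher, and 11 of the 122 members were at least 2-fold lower. Under TMM scaling the members were thus the smaller and weaker of the 2 ends of this axis and held little of its variance.

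How many genes separated in each direction depended on the scaling of the libraries. With TMM 122 were lower and 597 higher, so 17.0% of the separated genes were lower. With RLE the numbers were 160 and 569, and with upper-quartile scaling 172 and 593. With library totals as the only scaling, 474 genes were lower and 366 higher, so 56.4% were lower. When the median over tested genes was subtracted in each library, 371 were lower and 479 higher (43.6% lower). Scaling by totals moved the median difference of all tested genes from -0.01 to -0.16 log2 CPM. The median difference of the members moved by about as much, from -0.38 to -0.54. Of the 122 members, 110 still met the rule with totals alone, 105 with upper-quartile scaling, and 122 with RLE and with subtracted medians. The last number was nearly fixed in advance. The subtracted medians were higher in the 4 libraries than in the other 6, apart from rotenone replicate 4 against rotenone replicate 2. TMM factors ran from 0.856 to 1.03 in the 4 libraries and from 0.946 to 1.09 in the other 6, and the 100 most abundant genes took 32.7% to 43.6% of reads in the 4 and 29.7% to 36.1% in the other 6. The part of read concentration in the lower values of the members was not tested.

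**Figure D4:**
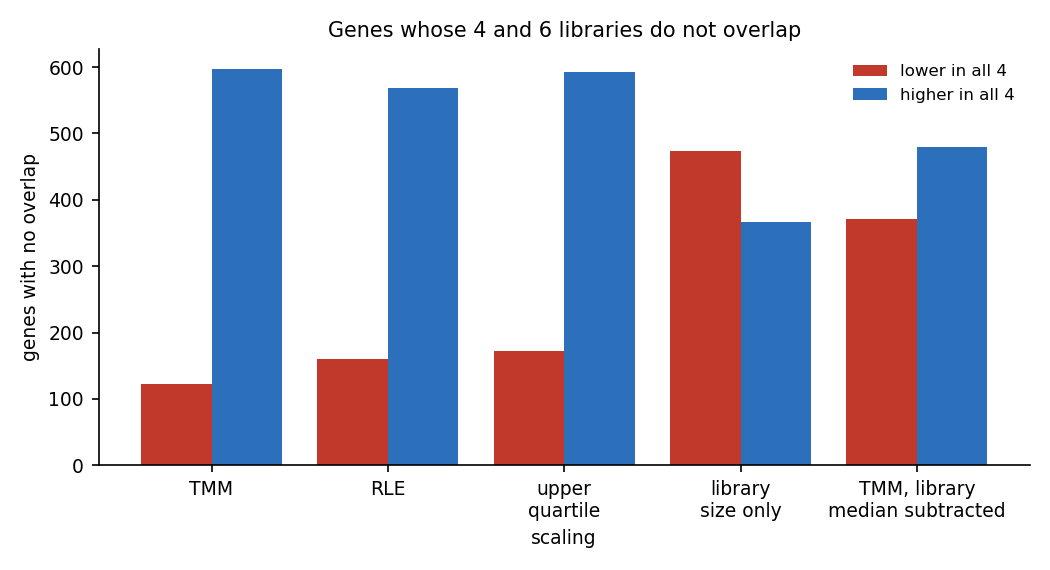
Bars count the tested genes whose 4 and 6 libraries do not overlap, lower in all 4 (red) or higher in all 4 (blue), under 5 ways of scaling the libraries. Higher genes outnumber lower ones 597 to 122 with TMM, and lower ones outnumber higher ones 474 to 366 with library totals alone.

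Between the treatments, no member was called. The rule places DMSO replicate 2 below rotenone replicates 1 and 2 in every member. It also places rotenone replicates 3, 4 and 5 below the other DMSO libraries. The treatment groups thus overlap in every member by the rule, and each group holds low and high libraries. The counts of members over all 10 libraries therefore describe their choice and are no test of the treatment. With edgeR's quasi-likelihood test, 0 of the 122 members passed an adjusted p under 0.05, as did 0 of the 18435 tested genes (0%). At an unadjusted p under 0.05 the members gave 5 genes (4.10%), all lower in rotenone skin, against 7.66% of all tested genes, 3.93% lower and 3.73% higher. This number depended on single libraries. Without DMSO replicate 2, the one DMSO library on the low side of the rule, it was 28 members (23.0%, against 9.89% of tested genes), and the members' share then follows in part from the rule, since all remaining low libraries are rotenone. It was 13 without rotenone replicate 1 and 13 without rotenone replicate 2 (10.7% each, against 10.2% and 7.28% of tested genes). It was 2 without rotenone replicate 3 and 2 without rotenone replicate 5 (1.64% each, against 6.15% and 8.78% of tested genes). The direction of these changes also follows in part from the rule. It places rotenone replicates 1 and 2 on the high side and rotenone replicates 3 and 5 on the low side. With each library left out in turn, 0 members passed the adjusted threshold, as did 0 of all tested genes. The smallest adjusted p of a member was 0.49, against 0.078 among all genes. DESeq2 also called 0 members, while it called 221 of the 18304 edgeR-tested genes to which it gave an adjusted p (1.21%), and the smallest adjusted p of a member was 0.15. Limma voom called 0 members and 1 gene among all tested (0.00542%).

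Members tended to have lower values in rotenone skin, as the make-up of the 4 libraries favours, since 3 of them are rotenone libraries. The edgeR log2 fold change was below 0 in 104 of 122 members, against 44.6% of all tested genes. Its median was -0.14 over the members and 0.03 over all genes, and it ran from -1.28 to 0.30 among members. Without DMSO replicate 2 the members' median was -0.23. Since the rule used 3 rotenone libraries and 1 DMSO library on its low side, this count describes the choice of members and is no test of the treatment. For 105 of the 122 members (86.1%) the 95% interval of the log2 fold change lay within 2-fold, up or down, as it did for 71.4% of all tested genes. The rule favours genes with little spread within each set, so the members' share of narrow intervals also describes their choice.

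**Figure D5:**
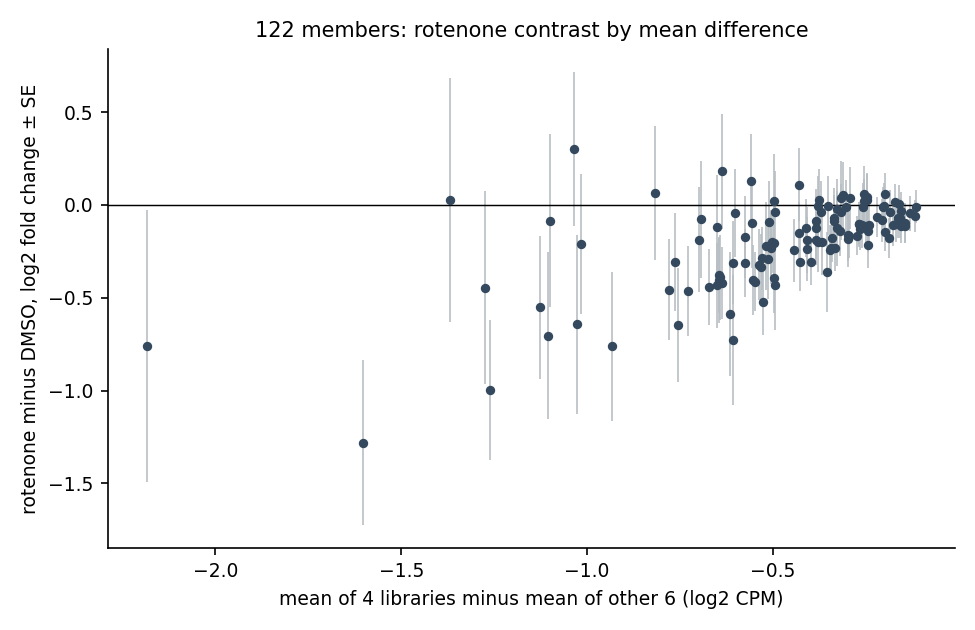
Each point is 1 of the 122 members, with its mean difference between the 4 libraries and the other 6 (log2 CPM, x axis) against its edgeR log2 fold change of rotenone minus DMSO (y axis, bars show SE). Of the points, 104 lie below 0 and 18 above, and no member passed an adjusted p under 0.05.

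Of the named members, Nfu_g_1_019178 had the lowest fold change in rotenone skin. Normalised read counts averaged 125 ± 63.4 CPM in DMSO and 51.5 ± 27.6 CPM in rotenone libraries (SD, n = 5 each), a log2 fold change of -1.28 ± 0.44 (SE) with an edgeR adjusted p of 0.49. The groups overlapped, with DMSO values from 59.5 to 197 CPM and rotenone values from 21.9 to 86.1 CPM. Nfu_g_1_012235 stood at 54.8 ± 40.6 CPM in DMSO and 32.4 ± 31.7 CPM in rotenone libraries, and its log2 fold change of -0.76 ± 0.73 was about the size of its error (edgeR adjusted p = 0.87). That value was -1.46 without rotenone replicate 2, -0.35 without DMSO replicate 4 and -0.50 without rotenone replicate 4. Nfu_g_1_007263 had the highest fold change of the members, at 33.0 ± 9.84 CPM in DMSO and 40.7 ± 28.0 CPM in rotenone libraries (log2 fold change 0.30 ± 0.42, edgeR adjusted p = 0.91). Without rotenone replicate 1 its log2 fold change was -0.18. Nfu_g_1_006312 followed at 0.18 ± 0.31 (edgeR adjusted p = 0.93), which became -0.085 without the same library.

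Inside each set the treatments could be set side by side, as values without a test. In 8 members (6.56%, against 7.34% of all tested genes) both rotenone libraries of the 6 lay above all 4 DMSO libraries. In 14 members (11.48%, against 7.71% of all tested genes) both lay below all 4. Among the 4 low libraries, DMSO replicate 2 lay below the 3 rotenone libraries in 41 members (33.6%) and above them in 31 (25.4%), against 29.0% and 28.4% of all tested genes. A sum over the members, like their share of reads, weighs abundant members most, and 14 of the 122 had a mean above 100 CPM. The members' summed level was 5360 CPM in DMSO replicate 2 and 5073 to 5454 CPM in the 3 rotenone libraries beside it. It was 6894 and 7010 CPM in rotenone replicates 1 and 2, and 6948 to 8116 CPM in the 4 DMSO libraries of that set. The summed level of DMSO replicate 2 thus fell inside the range of its 3 rotenone neighbours, and rotenone replicate 2 fell inside the range of the DMSO libraries on the high side, with rotenone replicate 1 just under it.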

How the data were processed

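Libraries of skin RNA were prepared with Illumina's TruSeq kit, per the labels' protocols. For processing, the submitters' notes list featureCounts 1.4.6-p4, STAR 2.4.1d and bcl2fastq 1.8.4. For build, annotation, strandedness and multi-mapping, nothing is stated in the labels or headers, so reads of overlapping or near-identical genes may be shared or lost. The authors deposited raw read counts per gene, which every main result used, and RPKM values. The deposited RPKM fitted library totals recycled down the rows (median CV of the implied length 0.0019% over 4793 genes, 31.4% with each library's own total), so they served only to recover gene lengths.

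Genes were filtered with filterByExpr (minimum count 10), which kept 18435 genes holding 99.9% of reads. Libraries were scaled with TMM, and log2 CPM used a prior count of 2. Rotenone was tested against DMSO with edgeR 4.0.16 (glmQLFit with robust=TRUE, glmQLFTest, no covariate) in R 4.3.3, two-sided, with Benjamini-Hochberg adjustment over all genes at 0.05. Standard errors were taken as the absolute log2 fold change over the root of F. DESeq2 1.42.0, limma 3.58.1 (voom), sva 3.50.0 (1 surrogate variable), other scalings and filters, prior counts of 0.5 and 5 and each library left out were the alternatives. Subtracting each library's median, and counting the genes that were higher, were added after the data were seen. The tests and the membership rule were also run on simulated counts. The differences planted for the rule were larger than that of any member, and those planted for the tests were larger than those of most members. That run therefore does not cover differences of the members' size. The members, rules and tests were chosen with earlier results of these data known. Without gene names, the members named were the 2 with the lowest mean difference and the 2 with the highest rotenone fold change, and planned marker lists could not be used. Depth limits the precision of scarce members, and the spread between libraries includes counting error.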

Additional observations from a re-analysis of the deposited data

How the results depend on the processing

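The count of 122 separated lower genes rested on the scaling: it was 474 with library totals alone and 371 with library medians subtracted, where the members' median difference was -0.54 and -0.47. RLE, upper-quartile scaling and both other filters gave 99 to 172. Both other prior counts gave 122, a number fixed in advance. The prior count was scaled to each library and cannot change the order of a gene's libraries. With 1 library left out, which loosens the rule by construction, 200 to 340 genes were lower and 668 to 1031 higher, the latter highest without rotenone replicate 4, and the members' median difference stayed between -0.41 and -0.38. Between 99 and 122 members met the rule in all 18 alternatives, lowest with a mean count of at least 50, where 108 were tested. Most of these outcomes were fixed or nearly fixed in advance. A member keeps its order when the prior count changes. It also does so when a library is left out, apart from small changes in scaling (117 to 122 members). With totals alone 366 genes were higher.

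In 19 alternatives, an adjusted p under 0.1 among them, 0 members were called between rotenone and DMSO. The rule itself makes the treatment groups overlap in the members, so this count follows in part from their choice. Among all tested genes, 0 were called with RLE, upper-quartile scaling, both other filters and each library left out. Limma voom and 1 surrogate variable called 1 each, and totals alone called 18. DESeq2 called 221 (1.21%), and 23 (0.125%) passed in edgeR at 0.1. At an unadjusted p under 0.05 between 2 and 28 members passed when 1 library was dropped, most without DMSO replicate 2. Their share was 1.64% to 23.0%, against 5.46% to 10.2% of tested genes. The rule set the side of each dropped library, so this spread follows in part from the choice of members. With totals alone 24 passed (19.7%, against 9.75% of tested genes), and with 1 surrogate variable 16 (13.1% against 8.95%). With DESeq2 11 passed (9.02%). The DESeq2 share was 8.19% over all genes with a read, a wider set that includes genes the count filter removed, so the 2 shares are not alike. The members' median log2 fold change ran from -0.29 to -0.10. With 1 library left out the log2 fold change ran from -1.46 to -0.35 for Nfu_g_1_012235, from -1.55 to -1.08 for Nfu_g_1_019178, from -0.18 to 0.46 for Nfu_g_1_007263 and from -0.085 to 0.30 for Nfu_g_1_006312, the last 2 below 0 without rotenone replicate 1. Adjusted p of the 4 named members ran from 0.15 to 0.999. The rotenone minus DMSO difference in the members' share of reads was -0.17 percentage points, beside a pooled SD of 0.12 points within groups. With TMM-scaled CPM the difference was -0.11, to which that SD does not apply. Most of the low libraries are rotenone libraries, so the rule favours this sign. No paired analysis was possible because the labels pair no libraries.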
